A study of Mus musculus with 28 samples.

Results

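The 33 genes described here encode proteins of the centromere and the kinetochore, and they were taken as a named list from the 37974 genes of the single-cell table. All 33 were found there, 30 by symbol and 3 (*Mis18a*, *Ska2* and *Ska3*) by identifier under an older symbol. By the same Ensembl identifiers, 22 of them had values among the 36358 genes of the tissue table, and the other 11 (*Cenpk*, *Cenpm*, *Cenpn*, *Cenpp*, *Cenpt*, *Cenpw*, *Ndc80*, *Spc24*, *Ska1*, *Ska3* and *Incenp*) were not analysed here in tissue.

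RNA was measured in C57BL/6 mice, in bulk samples of the subventricular zone (SVZ), a stem cell niche in the wall of the lateral ventricle, and in single cells of the same wall. The bulk samples came from mice of 3 weeks (n = 3) and 18 months (n = 3), and the cells from mice of 1 month and 24 months. The 22 cells are named for marker transcripts. At 1 month there were 3 Prom1+, 2 Gfap+ and 5 Dlx2+/Dcx+ cells, and at 24 months 3, 5 and 4. The study sorted the cells by size and complexity for the population richer in sphere-forming cells and picked them by hand, and no animal is named for any cell. Nothing in the labels says whether the bulk samples of 1 age came from separate animals, so p-values measure the spread between these samples only. No genotype or treatment other than age is given.

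The centromere is the stretch of chromosome that is marked by the histone H3 variant CENP-A, and the kinetochore is the protein assembly built on it that holds spindle microtubules during mitosis. An inner layer of CENP proteins sits on CENP-A chromatin throughout the cell cycle, while the outer layer that contacts microtubules assembles when cells enter mitosis. In the SVZ, dividing cells are found among activated stem cells, transit amplifying progenitors and early neuroblasts, and quiescent stem cells and mature glia rarely divide.

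All values are FPKM, fragments scaled to transcript length and to the mapped fragments of the library, which allows levels of different genes to be set side by side. The bulk samples held an estimated 18258000 to 22432000 fragments each, and between 11733 and 12127 genes were at 1 FPKM or more. In the cells between 4398 and 6626 genes were above 1 FPKM, with the fewest in cell 1 of the Gfap+ cells of 1 month, where 28 of the 33 genes were listed at 0. A listed 0 can be a failed estimate: among 309 genes that exceeded 50 FPKM in 19 or more of the cells, up to 9 in a cell were listed at 0. In the Dlx2+/Dcx+ cells of 1 month none of the 309 was listed at 0, and in those of 24 months 4, 2, 2 and 1 were. Genes above 1 FPKM numbered 5278 to 6286 in the former and 5081 to 5304 in the latter. The part of this difference in the age differences of those cells was not tested. The Prom1+ cell list averaged between 3.92 and 6.88 on the log2(FPKM + 1) scale in Prom1+ cells, the Dlx2+/Dcx+ list between 6.53 and 8.76 in Dlx2+/Dcx+ cells, and the Gfap+ list, which holds the oligodendroglial genes *Sox10*, *Olig1*, *Mag* and *Mog* beside *Gfap*, between 7.27 and 9.33 in Gfap+ cells. Of other cell types, at least 1 microglia marker was above 1 FPKM in 5 of the 7 Gfap+ and 1 of the 9 Dlx2+/Dcx+ cells, an ependymal marker in 2 Gfap+ cells and an endothelial marker in none. At least 1 neuron marker was above 1 FPKM in 8 Dlx2+/Dcx+ and 3 Prom1+ cells, and an astrocyte marker in all 6 Prom1+, 6 Dlx2+/Dcx+ and 3 Gfap+ cells. Their part in the results was not tested.

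In the tissue, the question was which of these genes changed between 3 weeks and 18 months. Of the tested genes, *Cenpa*, *Spc25*, *Cenpe*, *Cenpf*, *Birc5* and *Cdca8* were called lower, and their mean FPKM at 3 weeks was between 3.09 and 5.09 times that at 18 months. None of the tested genes was called higher. A call required an unadjusted p under 0.05 from limma and a log2 change beyond 1 in size on the log2(FPKM + 1) scale, a scale that understates the change of low genes. The 19 genes at 1 FPKM or more in at least 3 of the 6 samples were tested, and 6 of them were called lower, against 2.07% of all 12287 genes tested. One of the 6, *Cenpf*, passed the filter through its 3-week samples alone, so it had to differ to be tested. The share of all genes called higher was 1.83%. Over all genes 254 were called lower and 225 higher, and with the values scaled to TPM 370 and 521 of 14791 tested, with the same 6 of the 33 genes lower. With Benjamini-Hochberg adjustment over all genes, 4 of the 19 remained lower (*Cenpa*, *Spc25*, *Birc5* and *Cdca8*), against 1.23% of all genes. Leaving out 1 sample at a time, *Spc25* alone stayed under an adjusted p of 0.05 throughout (limma). *Cenpa* had adjusted p of 0.0567 to 0.0800 without any 1 sample of 3 weeks, *Birc5* of 0.0647 to 0.0941 without any 1 of 3 weeks or replicate 2 of 18 months, and *Cdca8* of 0.0557 without replicate 2 of 3 weeks. In 12 of the 19 all samples of 18 months lay below all samples of 3 weeks, as in 12.2% of all genes. The median log2 change of the 19 was −0.57, beside 0.089 over all genes tested, and over all 22 without the filter it was −0.37. A bulk sample cannot tell fewer cells of a type from less RNA per cell.

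**Figure D1:**
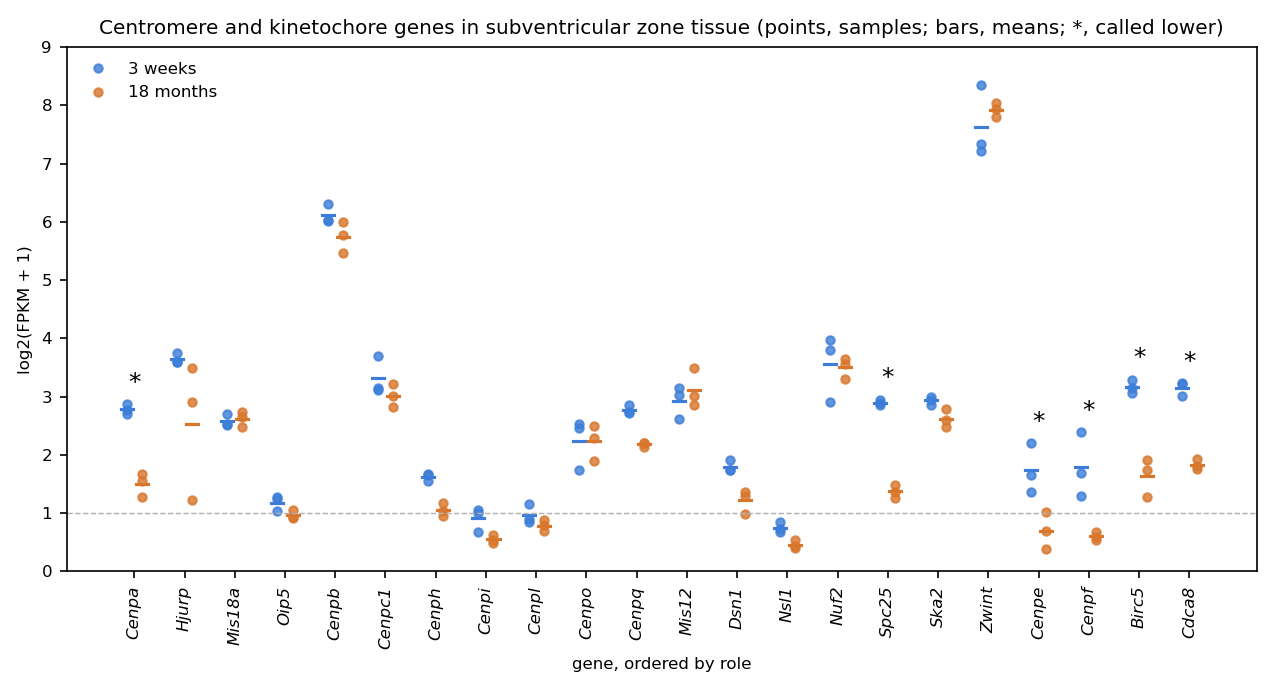
Level of the 22 genes in each bulk sample as log2(FPKM + 1), with genes ordered by role along the horizontal axis. Points are samples, bars are means of 3 samples, the dashed line is at 1 FPKM, and an asterisk marks the 6 genes called lower. *Spc25* separates without overlap, from 6.22 to 6.70 FPKM in the 3-week samples and from 1.40 to 1.80 in the 18-month samples, while *Zwint* is the highest of the genes at both ages and its ages overlap.

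CENP-A itself was among the genes that fell. *Cenpa* (ENSMUSG00000029177, chr5:30666777-30674830 on GRCm38), the gene of the histone variant, had 5.79, 6.28 and 5.54 FPKM in the 3 samples of 3 weeks and 1.41, 2.16 and 1.94 in those of 18 months. The groups did not overlap, and the log2 change was −1.28 (standard error 0.15, limma, adjusted p = 0.0128). *Hjurp*, the chaperone that loads CENP-A, had 11.1, 12.4 and 11.0 FPKM at 3 weeks and 1.32, 6.47 and 10.2 at 18 months. Replicate 1 of 18 months stood far below the other two, and the log2 change of −1.11 (standard error 0.58, limma, adjusted p = 0.302) was not called. Leaving out 1 sample at a time moved it between −1.58 and −0.45, and only without replicate 3 of 18 months was *Hjurp* called lower. *Mis18a* and *Oip5*, which encode subunits of the Mis18 complex that licenses CENP-A loading, had log2 changes of 0.035 and −0.21, and their ages overlapped. Of this group 1 of 4 genes was called lower, beside 2.07% of all genes tested.

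The inner layer, the constitutive centromere network that bridges CENP-A chromatin and the outer kinetochore, had no gene that was called in tissue. Of 6 members with values, 4 were tested. *Cenpq* had 6.26, 5.66 and 5.61 FPKM at 3 weeks and 3.60, 3.38 and 3.59 at 18 months, and *Cenph* had 2.17, 2.13 and 1.92 and 1.06, 0.929 and 1.25. The ages did not overlap in either gene, but their log2 changes of −0.60 (limma, adjusted p = 0.0440) and −0.57 (limma, adjusted p = 0.0510) did not reach the limit of size. *Cenpc1*, whose product binds CENP-A nucleosomes and which had the highest level of the 6, at 9.15 ± 2.39 FPKM (SD, n = 3) and 7.14 ± 1.12 FPKM (SD, n = 3), changed by −0.30 and *Cenpo* by −0.0092, both with overlapping ages. *Cenpi* and *Cenpl* were under 1 FPKM in most samples and were not tested. *Cenpi* had 0.995, 1.08 and 0.598 FPKM at 3 weeks and 0.402, 0.532 and 0.452 at 18 months, without overlap. *Cenpb*, which encodes a protein that binds a satellite DNA motif and is not part of the network, was the second most abundant gene of the list in tissue, at 68.8 ± 8.35 FPKM (SD, n = 3) at 3 weeks and 53.1 ± 9.87 (SD, n = 3) at 18 months. Its log2 change of −0.38 (limma, adjusted p = 0.250) was not called.

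In the outer kinetochore the changes were uneven. The NDC80 complex is the main microtubule-binding unit, and 2 of its 4 subunits had tissue values. *Spc25* (ENSMUSG00000005233, chr2:69193895-69206194 on GRCm38) had 6.70, 6.40 and 6.22 FPKM at 3 weeks and 1.40, 1.80 and 1.58 at 18 months, a ratio of means of 4.05 and a log2 change of −1.52 (standard error 0.12, limma, adjusted p = 0.00360). *Nuf2*, a partner subunit, had 6.47, 14.7 and 12.9 FPKM and 8.86, 11.5 and 10.8 FPKM, with a log2 change of −0.054 (standard error 0.30) and overlapping ages. In the MIS12 complex, which joins the inner layer to NDC80, *Dsn1* had 2.74, 2.35 and 2.35 FPKM at 3 weeks and 1.45, 1.58 and 0.982 at 18 months without overlap, and its log2 change of −0.58 (limma, adjusted p = 0.0814) was under the limit. *Mis12* changed by 0.19 and *Nsl1* was not tested, at 0.789, 0.654 and 0.591 FPKM and 0.314, 0.353 and 0.443 FPKM. *Ska2*, a subunit of the SKA complex that stabilises microtubule attachment, changed by −0.31 (limma, adjusted p = 0.221). *Zwint*, which encodes a partner of KNL1 and is also strongly expressed in neurons, had 324, 148 and 160.0 FPKM at 3 weeks and 220.4, 245 and 261 at 18 months, so replicate 1 of 3 weeks lay above all other samples and the other two of 3 weeks below all others. The neuron markers *Rbfox3*, *Snap25* and *Syt1* summed to between 554 and 662 FPKM in the 3-week samples and between 548 and 889 in the 18-month samples, and none of the 3 was called.

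Both genes of the corona and motor group were called lower, beside 2.07% of all genes tested. *Cenpe*, which encodes a kinesin that moves chromosomes to the spindle equator, had 3.59, 2.13 and 1.58 FPKM at 3 weeks and 0.616, 0.298 and 1.03 at 18 months, and *Cenpf*, which encodes a large corona protein, had 4.22, 2.23 and 1.46 and 0.605, 0.499 and 0.449. Their log2 changes were −1.04 (standard error 0.27, limma, adjusted p = 0.0912) and −1.19 (standard error 0.28, limma, adjusted p = 0.0765). *Cenpf* passed the filter through its samples of 3 weeks alone, and *Cenpe* through those and 1 sample of 18 months, so that they were tested at all depended on their being higher at 3 weeks. The call of *Cenpe* was lost without replicate 2 of 18 months, at −0.88, or without replicate 1 of 3 weeks, at −0.81. The chromosomal passenger complex corrects faulty attachments and completes cell division. Its member *Birc5* (ENSMUSG00000017716, chr11:117849251-117855743 on GRCm38), the gene of survivin, had 7.33, 8.74 and 7.80 FPKM at 3 weeks and 1.41, 2.33 and 2.75 at 18 months, a log2 change of −1.52 (standard error 0.20, limma, adjusted p = 0.0173). *Cdca8* (ENSMUSG00000028873, chr4:124918465-124939311), the gene of borealin, had 7.05, 8.24 and 8.37 FPKM and 2.36, 2.80 and 2.50 FPKM, a log2 change of −1.32 (standard error 0.13, limma, adjusted p = 0.00720). Neither gene's ages overlapped. Exons of *Cdca8*, *Cenpo*, *Cenpq*, *Mis12*, *Oip5* and *Ska2* overlap those of a gene on the opposite strand, by between 95 and 1380 bases. Among the genes read in cells only, *Cenpp*, *Cenpk*, *Ska3* and *Cenpt* have such overlaps, of up to 315, 233, 78 and 8 bases. The counting is not stated to use strand, so their fragments cannot be told apart from that partner's.

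Sequence around the start sites is shown for the called genes and for 2 of the 13 that were tested and not called, both without CCAAT, since cell cycle genes of G2 and M phase often share promoter elements. Each sequence runs from 150 bases before to 30 bases after the RefSeq start site (GRCm38.p6), 5′ to 3′ on the gene's strand. Capitals mark exact matches to TTTGAA (the cell cycle homology region), CCAAT (the NF-Y box), and TTTCCCGC or TTTGGCGC (E2F sites), searched on both strands, so that ATTGG marks CCAAT on the other strand.

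Cenpa (chr5:30666736-30666915, plus strand): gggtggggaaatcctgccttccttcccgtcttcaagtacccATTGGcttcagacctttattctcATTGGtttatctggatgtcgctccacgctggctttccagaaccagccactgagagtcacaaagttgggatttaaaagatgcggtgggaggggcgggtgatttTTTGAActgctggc

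Spc25 (chr2:69206184-69206363, minus strand): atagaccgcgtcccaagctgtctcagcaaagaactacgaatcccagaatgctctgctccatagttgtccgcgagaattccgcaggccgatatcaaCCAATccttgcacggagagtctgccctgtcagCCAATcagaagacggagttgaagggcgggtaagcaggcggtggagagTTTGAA

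Cdca8 (chr4:124936888-124937067, minus strand): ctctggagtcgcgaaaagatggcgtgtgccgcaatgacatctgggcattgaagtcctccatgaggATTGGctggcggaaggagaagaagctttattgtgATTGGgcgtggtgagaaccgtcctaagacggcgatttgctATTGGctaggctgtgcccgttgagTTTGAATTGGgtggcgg

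Cenpf (chr1:189688057-189688236, minus strand): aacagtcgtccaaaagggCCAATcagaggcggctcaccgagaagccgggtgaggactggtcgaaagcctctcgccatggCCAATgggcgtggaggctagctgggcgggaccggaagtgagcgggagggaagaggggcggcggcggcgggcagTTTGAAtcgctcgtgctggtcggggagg

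Cenpe (chr3:135212413-135212592, plus strand): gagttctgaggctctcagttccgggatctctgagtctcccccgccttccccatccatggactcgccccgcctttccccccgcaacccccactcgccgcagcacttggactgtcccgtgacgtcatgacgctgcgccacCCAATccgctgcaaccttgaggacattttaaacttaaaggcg

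Birc5 (chr11:117849087-117849266, plus strand): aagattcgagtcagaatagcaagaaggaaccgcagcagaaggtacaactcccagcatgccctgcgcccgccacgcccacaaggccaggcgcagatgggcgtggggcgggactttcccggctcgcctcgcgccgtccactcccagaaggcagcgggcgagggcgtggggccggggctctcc

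Cenpb (chr2:131180038-131180217, minus strand): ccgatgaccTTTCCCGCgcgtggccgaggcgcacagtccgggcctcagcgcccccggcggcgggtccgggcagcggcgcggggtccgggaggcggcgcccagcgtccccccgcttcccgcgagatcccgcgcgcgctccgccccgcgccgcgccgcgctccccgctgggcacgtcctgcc

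Mis18a (chr16:90727342-90727521, minus strand): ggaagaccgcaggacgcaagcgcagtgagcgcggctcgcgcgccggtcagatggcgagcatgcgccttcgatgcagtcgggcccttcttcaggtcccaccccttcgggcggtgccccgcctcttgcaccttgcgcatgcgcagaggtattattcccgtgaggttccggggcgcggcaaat

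*Cenpa*, *Spc25*, *Cdca8* and *Cenpf* each hold TTTGAA on the gene's own strand within 30 bases after the start site, with CCAAT before it. *Cenpe* holds a CCAAT match 12 bases before the start site, and *Birc5* holds none of these letters in its window. Of the 33 genes, 29 had a RefSeq window of 250 bases before to 50 after the start site. A gene counted as holding a motif where any of its windows did. TTTGAA was in 11 of the 29 genes (37.9%) and in 20.2% of all 27025 genes with a window, CCAAT in 19 (65.5%) and in 41.1%, and an E2F site in 4 (13.8%) and in 1.80%. Both TTTGAA and CCAAT were in 9 of the 29 (31.0%) and in 7.97% of all genes. Counted by window, the shares over all 32851 windows were 17.9%, 37.4%, 1.56% and 6.95%. Among the 6 genes called lower in tissue 4 held both, and among the 13 tested and not called 2 did (*Hjurp* and *Oip5*). CCAAT, with or without TTTGAA, was in 5 of the 6 and in 8 of the 13, so the 2 printed for the genes not called do not stand for that group. In *Cdca8*, 1 CCAAT match overlaps TTTGAA by letters. A match describes letters in the window and is not a binding site.

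Other genes of the pathway were read in the same fit, in which 2.07% of all genes were called lower. Of 9 tested genes in a list of other kinetochore and centromere proteins, 4 were called lower and none higher, with a median log2 change of −0.79, and *Aurkb*, the kinase of the passenger complex, changed by −1.54 (limma, adjusted p = 0.00686). Of 9 spindle assembly checkpoint genes 4 were called lower, with a median of −0.84, and *Cdc20*, the activator held by the checkpoint, had 6.97, 7.18 and 6.70 FPKM at 3 weeks and 2.56, 2.98 and 1.89 at 18 months. A G2/M reference list had 7 of 8 tested genes called lower, with a median of −1.48, and its summed level lay between 89.0 and 95.9 FPKM in the 3-week samples and between 23.3 and 26.0 in the 18-month samples. An S phase reference list had 2 of 7 called lower, with a median of −0.87. Some of these genes, as *Ttk* of the checkpoint list, passed the filter through their 3-week samples alone, and over all listed genes without the filter the medians of the other kinetochore, checkpoint, G2/M and S phase lists were −0.69, −0.56, −1.48 and −0.79. The difference between these medians and that of the 33-gene list was not tested.

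**Figure D2:**
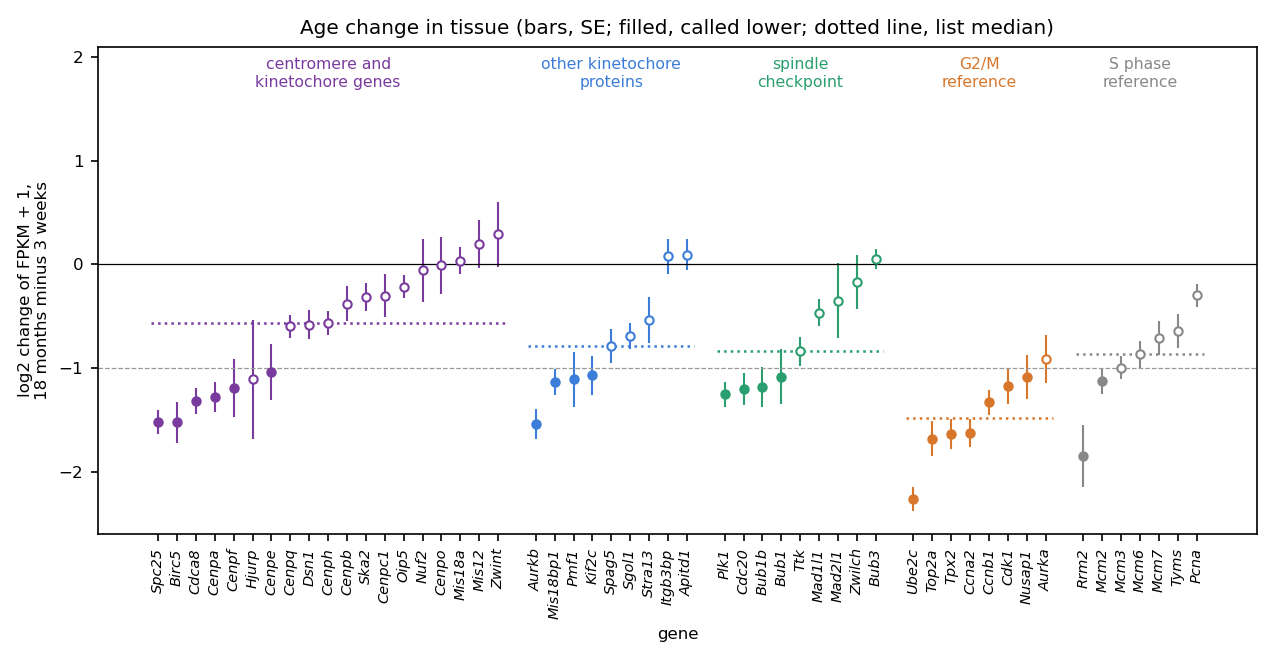
Log2 change of FPKM + 1 from 3 weeks to 18 months in tissue for the tested genes of the centromere and kinetochore list and of 4 reference lists, each list sorted by change. Bars are standard errors from limma, filled points were called lower, dotted lines are list medians and the dashed line is at −1. The centromere and kinetochore genes run from −1.52 for *Spc25* to 0.29 for *Zwint*.

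Markers of the sequenced cell types went both ways in tissue, where 2.07% of all genes were called lower. Changes were below 0 in 3 of 4 tested genes of the Prom1+ list. They were below 0 in 2 of 3 of the Gfap+ and of the Dlx2+/Dcx+ list, beside 5059 of all 12287. The Dlx2+/Dcx+ list had 1 of 3 tested genes called lower, and its summed level lay between 49.6 and 76.6 FPKM in the 3-week samples and between 26.8 and 33.8 in the 18-month samples, with *Dlx2* at 38.7, 45.8 and 51.1 FPKM and then 16.3, 12.2 and 11.1. *Sp9* of that list had a log2 change of 0.75 (limma, adjusted p = 0.688) and was not called. Its levels were 0.389, 15.6 and 16.7 FPKM at 3 weeks and 12.9, 10.6 and 11.0 at 18 months, so replicate 1 of 3 weeks alone was low. *Dcx* changed by −0.96 (limma, adjusted p = 0.0268) without overlap and was not called. The Prom1+ list had 1 of 4 called lower, *Prom1* itself, and summed to between 32.0 and 45.1 FPKM in the 3-week samples and between 26.6 and 35.2 in the 18-month samples. Of the Gfap+ list 1 of 3 tested genes, *Mog*, was called lower, the list summed to between 488 and 714 FPKM and then between 359 and 478, and *Olig1* was listed at 0 in all 6 samples. The defining gene *Gfap* had a log2 change of 0.71 (limma, adjusted p = 0.578) and *Hes5* of the Prom1+ list of 0.28 (limma, adjusted p = 0.590), and neither was called. The ages overlapped in both. *Mag* changed by −0.98, *Egfr* by −0.58 and *Nr2e1* by −0.44, without overlap, and these were not called either. None of the 15 tested microglia, endothelial, ependymal, neuron and astrocyte markers was called. In 4 of them the ages did not overlap, a share no larger than over all genes, where 1504 were lower and 2566 higher without overlap of 12287. The microglia gene *Aif1* had a log2 change of 0.99 (limma, adjusted p = 0.0909) and the ependymal gene *Tmem212* of 0.73 (limma, adjusted p = 0.0783), and the endothelial gene *Ly6c1* of −0.85 (limma, adjusted p = 0.124) and the microglia gene *Tmem119* of −0.28 (limma, adjusted p = 0.148). The part of these markers in the change of the kinetochore genes was not tested.

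In the single cells the genes were read gene by gene and cell by cell. Prom1+ and Dlx2+/Dcx+ cells held most of them. Above 1 FPKM in at least 50% of the cells were 30 of the 33 genes (90.9%) in Prom1+ cells, 26 (78.8%) in Dlx2+/Dcx+ cells and 4 (12.1%) in Gfap+ cells, beside 17.5%, 12.6% and 12.3% of all 37974 listed genes. The Gfap+ share was thus near that of all genes, and it was 7 to 11 of the 33 when any 1 cell was left out, since 3 of 6 cells then suffice. The sort by size and complexity and the choice by marker qPCR can set such shares. The number above 1 FPKM per cell was 30, 29 and 27 in the Prom1+ cells of 1 month and 29, 20 and 20 in those of 24 months, and 29, 25, 27, 25 and 26 in the Dlx2+/Dcx+ cells of 1 month and 23, 16, 24 and 18 in those of 24 months. In Gfap+ cells it was 3 and 10 at 1 month and 7, 4, 11, 7 and 10 at 24 months. With no animal named, each subpopulation and age counts as 1 sample, and no test was made on cells.

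**Figure D3:**
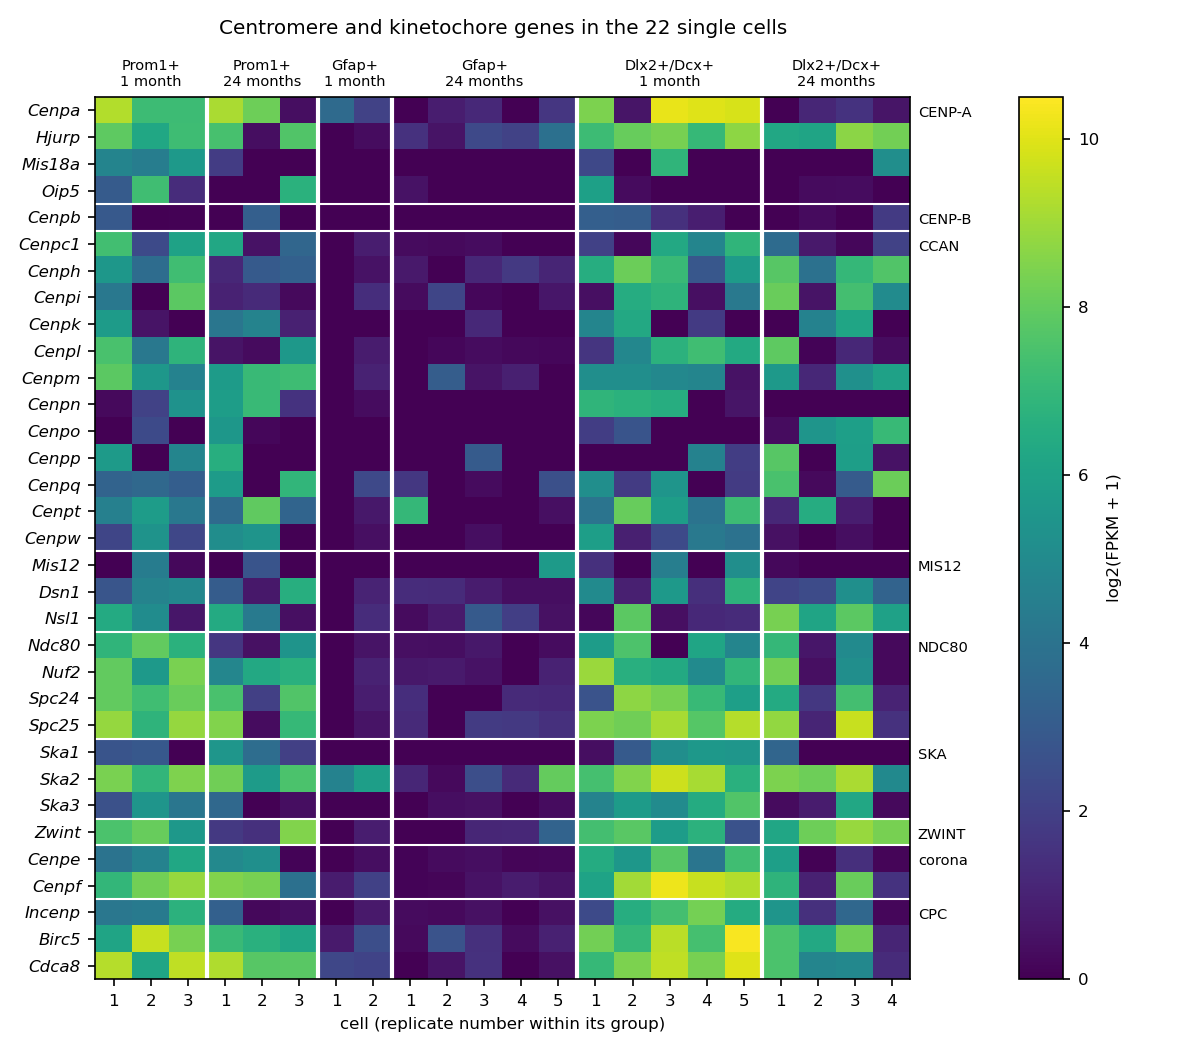
Level of the 33 genes in each of the 22 cells, as log2(FPKM + 1), with genes in rows by role (CCAN, constitutive centromere network; CPC, chromosomal passenger complex) and cells in columns by subpopulation and age. The 7 Gfap+ cells are dark for nearly all genes. *Ska2* is at 23.9 FPKM or more in those of 1 month. In those of 24 months its median is 1.39 FPKM and its highest value 260 FPKM. Cells 2 and 4 of the Dlx2+/Dcx+ cells of 24 months are dark for the NDC80 complex and the corona and motor genes.

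Relative to Gfap+ cells, 32 of the 33 genes were higher in Prom1+ cells by over 1 in the difference of mean log2(FPKM + 1), as were 33% of the 11332 expressed genes, and the median difference was 3.59 beside 0.32. In 6 of them (*Cenpm*, *Nuf2*, *Spc24*, *Cenpf*, *Birc5* and *Cdca8*) every Prom1+ cell lay above every Gfap+ cell, which held for 1.91% of expressed genes. Dlx2+/Dcx+ cells exceeded Gfap+ cells by over 1 in 31 of the 33 genes, against 27.6% of expressed genes, with a median difference of 3.62 beside 0.13. In *Hjurp* and *Cenph* their ranges did not overlap, as in 1.01% of expressed genes. *Hjurp* ranged from 69.6 to 414 FPKM in the Dlx2+/Dcx+ cells and from 0 to 13.8 in the Gfap+ cells, and *Cenph* from 6.23 to 279 and 0 to 2.38. Between the Dlx2+/Dcx+ and the Prom1+ cells 7 genes were higher by over 1 and 10 lower, against 13.5% and 24.4% of expressed genes, with a median difference of −0.20 and overlapping cells in all 33. The widest differences were −2.59 for *Cenpa* and 2.36 for *Cenph*.

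*Ska2* was the gene of the list that Gfap+ cells most often held, above 1 FPKM in 6 of 7, with 23.9 and 58.9 FPKM at 1 month and 1.17, 0.220, 4.79, 1.39 and 260.0 at 24 months. Single high values in these cells were 125 FPKM of *Cenpt* in cell 1 of 24 months and 52.1 FPKM of *Mis12* in cell 5 of 24 months, with at most 0.583 and 0 FPKM of those genes in the other 6. Exons of *Cenpt* and *Mis12* overlap those of a gene on the opposite strand, by 8 and 231 bases. *Mis18a*, *Cenpb*, *Cenpo* and *Ska1* were listed at 0 in all 7 Gfap+ cells. *Cenpb*, at 43.0 to 78.4 FPKM in bulk tissue, reached at most 7.997 FPKM in any of the 22 cells, and *Zwint*, at 148 to 324 FPKM in tissue, reached 472 in Dlx2+/Dcx+ cells and 9.20 in Gfap+ cells. Cells and tissue are in separate tables, so these levels are set side by side without a comparison.

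Between 1 and 24 months, mean levels of most of the genes were lower in both subpopulations that held them. In Prom1+ cells 19 of the 33 were lower at 24 months by over 1 and 4 higher, against 24.0% and 22% of expressed genes, and the median difference was −1.39 (all expressed genes, 0). In Dlx2+/Dcx+ cells 20 were lower and 6 higher, against 27.1% and 16.6%, with a median of −2.17 beside −0.14. In Gfap+ cells, where levels were low, 4 were lower and 3 higher, against 19.6% and 29.6%, with a median of 0.046 beside 0.16. With a pseudocount of 0.1 the counts in Gfap+ cells were 4 and 10. Without cell 2 of 24 months the median in Prom1+ cells was −0.69, and without cell 1 of 24 months it was −1.72. In Dlx2+/Dcx+ cells leaving out 1 cell at a time moved it between −2.87 and −1.61.

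**Figure D4:**
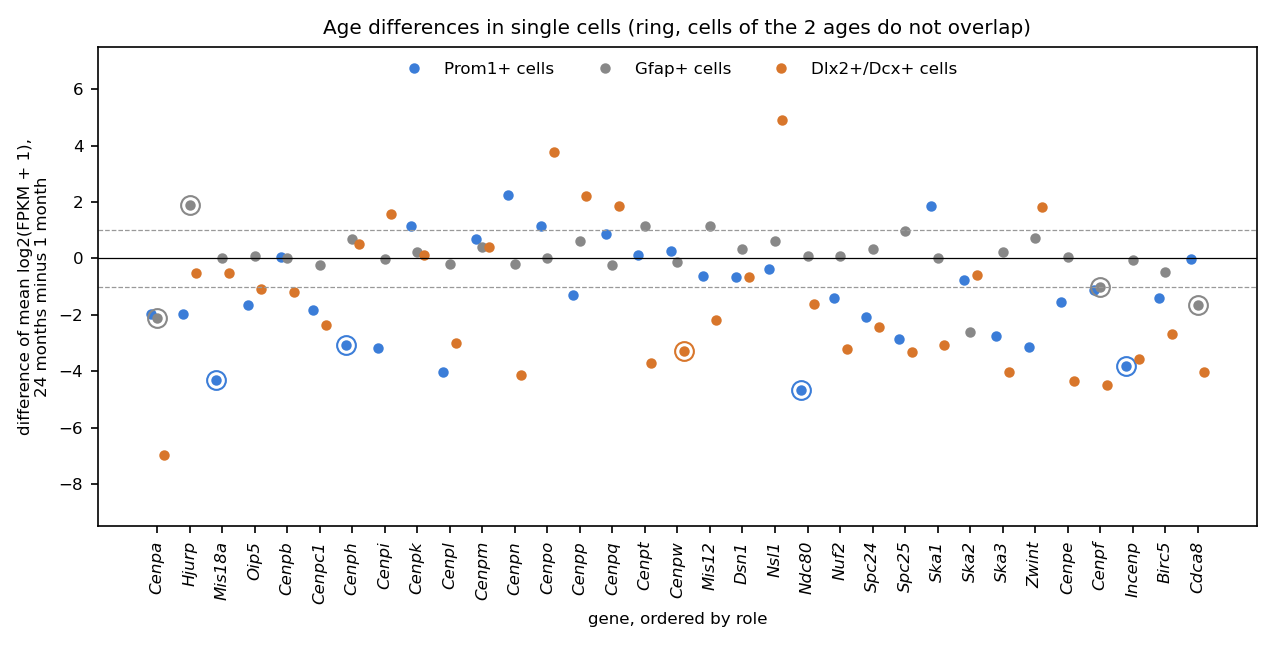
Difference of mean log2(FPKM + 1), 24 months minus 1 month, of each of the 33 genes in Prom1+, Gfap+ and Dlx2+/Dcx+ cells, with genes ordered by role and dashed lines at −1 and 1. A ring marks genes whose cells of the 2 ages do not overlap. *Cenpa* in Dlx2+/Dcx+ cells lies lowest, at −6.99, and *Nsl1* in the same cells highest, at 4.89.

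In Prom1+ cells the ages did not overlap in 4 genes, all lower at 24 months, against 4.10% of expressed genes, and none was higher without overlap, against 3.90%. *Ndc80*, the subunit that gives the NDC80 complex its name, had 116, 250.2 and 105 FPKM in the cells of 1 month and 2.20, 0.393 and 41.9 in those of 24 months, a difference of mean log2 of −4.66. *Mis18a* had 26.0, 20.7 and 49.2 FPKM and then 2.64, 0 and 0, and *Cenph* 46.0, 11.9 and 156 and then 1.22, 6.75 and 8.29. *Incenp*, the scaffold of the passenger complex, had 16.8, 19.3 and 107 FPKM at 1 month and 8.36, 0.182 and 0.303 at 24 months, with cell 3 of 1 month highest.

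All 4 subunits of the NDC80 complex were lower by over 1 in Prom1+ cells, as were 24.0% of expressed genes, with differences of −4.66 for *Ndc80*, −1.41 for *Nuf2*, −2.08 for *Spc24* and −2.87 for *Spc25*. Cell 2 of 24 months was the low one in *Spc25*, with 459, 113 and 452 FPKM at 1 month and 360.4, 0.273 and 131 at 24 months. Genes that loaded or marked CENP-A were lower too, 4 of 4 by over 1, and *Cenpa* had 618, 144 and 145 FPKM and 580.0, 292 and 0.324, so that cell 3 of 24 months alone was low. *Hjurp* had 173, 0.305 and 202 FPKM at 24 months, with the low value in cell 2. The genes that were higher by over 1 were *Cenpn* at 2.27, *Ska1* at 1.88, *Cenpk* at 1.15 and *Cenpo* at 1.13, and their ages overlapped. Of these, *Cenpk* and *Cenpo* have exons that overlap those of a gene on the opposite strand. *Cdca8* differed by −0.032, with 635, 70.9 and 717 FPKM at 1 month and 612, 219 and 227 at 24 months.

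Dlx2+/Dcx+ cells showed the widest difference in *Cenpa*. Of the 5 cells of 1 month, 4 held between 341 and 1139 FPKM and cell 2 held 0.507, and the 4 cells of 24 months held 0, 1.19, 1.94 and 0.509. The difference of mean log2 was −6.99, and the overlap came from cell 2 of 1 month. *Hjurp*, in contrast, was high at both ages, with 146, 264, 325, 129.7 and 414 FPKM and 77.4, 69.6, 405 and 306 FPKM, a difference of −0.52. *Cenpw*, a histone-fold subunit of the inner layer, was the one gene whose ages did not overlap, with 58.6, 0.919, 4.20, 18.1 and 14.6 FPKM at 1 month and 0.378, 0, 0.316 and 0 at 24 months, against 1.08% of expressed genes lower without overlap. None was higher without overlap, against 0.644%.

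Genes of the NDC80 complex, the corona and motor group and the passenger complex were lower at 24 months in Dlx2+/Dcx+ cells, with some of the old cells low. *Cenpf* had 67.6, 530.3, 1186, 778 and 620.1 FPKM at 1 month and 112, 0.924, 273 and 1.89 at 24 months, and *Cenpe* 87.6, 46.4, 219, 16.1 and 155 and 60.2, 0.0492, 1.68 and 0.106. Cells 2 and 4 of 24 months lay below every cell of 1 month in both genes, and in *Cenpe* cell 3 did too. *Spc25* had 345, 294, 564, 213 and 651 FPKM at 1 month and 441, 1.10, 791 and 1.81 at 24 months, so that cells 2 and 4 of 24 months were low and cells 1 and 3 were not. *Cdca8* had 130.1, 345, 727, 321 and 1019 FPKM and 182, 26.6, 28.6 and 1.45 FPKM, and *Birc5* 305, 125, 682, 168 and 1329 and 183, 79.3, 299 and 1.11. Cells 2 and 4 of 24 months were again below all cells of 1 month in both genes, and cell 3 was in *Cdca8*. For *Nuf2*, *Ndc80* and *Spc24*, cells 2 and 4 held at most 2.29 FPKM, and cells 1 and 3 at least 32.0. *Ska1* and *Ska3* differed by −3.07 and −4.01, and *Ska2*, their partner, by −0.58 with at least 30.9 FPKM in every cell.

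Some genes went the other way in these cells. *Nsl1*, a MIS12 complex subunit, had 0.136, 233, 0.331, 1.30 and 1.44 FPKM at 1 month and 329, 68.9, 228 and 63.3 at 24 months, a difference of 4.89, with overlap through cell 2 of 1 month. *Zwint* had 164, 223, 54.9, 105 and 5.25 FPKM and 73.4, 286, 472 and 320.0 FPKM, a difference of 1.83. The inner layer genes *Cenpo*, *Cenpp*, *Cenpq* and *Cenpi* differed by 3.78, 2.22, 1.88 and 1.58. Exons of *Cenpo*, *Cenpp* and *Cenpq* overlap those of genes on the opposite strand, whose fragments cannot be told apart from theirs. Of the 12 inner layer genes 5 were lower by over 1 and 4 higher, beside 27.1% and 16.6% of expressed genes. All 9 genes of the NDC80 complex, the corona and motor group and the passenger complex were lower by over 1, and the difference between these groups was not tested. Cells 2 and 4 of 24 months thus held little *Ndc80*, *Nuf2*, *Spc24*, *Spc25*, *Cenpe* and *Cenpf* beside 286 and 320.0 FPKM of *Zwint*, 68.9 and 63.3 of *Nsl1* and 69.6 and 306 of *Hjurp*.

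Cell cycle reference lists were read beside these values. In Dlx2+/Dcx+ cells the mean log2(FPKM + 1) of the 33 genes was 4.67, 5.002, 5.56, 4.45 and 4.97 at 1 month and 4.53, 2.25, 4.38 and 2.52 at 24 months, and that of the 10 G2/M reference genes 6.17, 6.12, 8.83, 8.18 and 9.20 and 4.94, 1.64, 5.64 and 1.48. The 10 S phase reference genes averaged 7.05, 4.94, 3.10, 4.33 and 3.86 at 1 month and 7.10, 6.43, 6.31 and 6.93 at 24 months. Cells 2 and 4 of 24 months were therefore the lowest in the kinetochore and the G2/M genes, and were among the higher ones in the S phase genes. By gene, 9 of the 10 G2/M genes were lower by over 1 (median −4.31), and 6 of the 10 S phase genes higher (median 1.63), beside 27.1% lower and 16.6% higher among expressed genes. In Prom1+ cells the 33 genes averaged 5.30, 4.82 and 5.14 at 1 month and 4.66, 3.19 and 3.57 at 24 months, and the G2/M genes 7.46, 6.88 and 7.15 and 7.28, 5.39 and 4.99. The S phase genes averaged 5.21, 7.65 and 4.87 and 5.86, 5.13 and 6.89 in those cells. Across the 9 Dlx2+/Dcx+ cells the mean of the 33 genes ran with that of the G2/M list (Pearson's r = 0.90, Spearman's rho = 0.75) and against that of the S phase list (r = −0.59, rho = −0.50), and across the 6 Prom1+ cells the values were r = 0.94 and rho = 0.77 for the G2/M list and r = −0.12 and rho = −0.14 for the S phase list. In the 7 Gfap+ cells r was −0.063 for the G2/M list, and there the mean ran with the number of genes above 1 FPKM (r = 0.69). With that number the mean had r = 0.44 and rho = 0.50 in Dlx2+/Dcx+ cells, and r = 0.23 and rho = 0.086 in Prom1+ cells. These describe single cells, each with a library and depth of its own, that share age groups, and the part of the cell cycle phase of the sampled cells in the age differences was not tested.

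**Figure D5:**
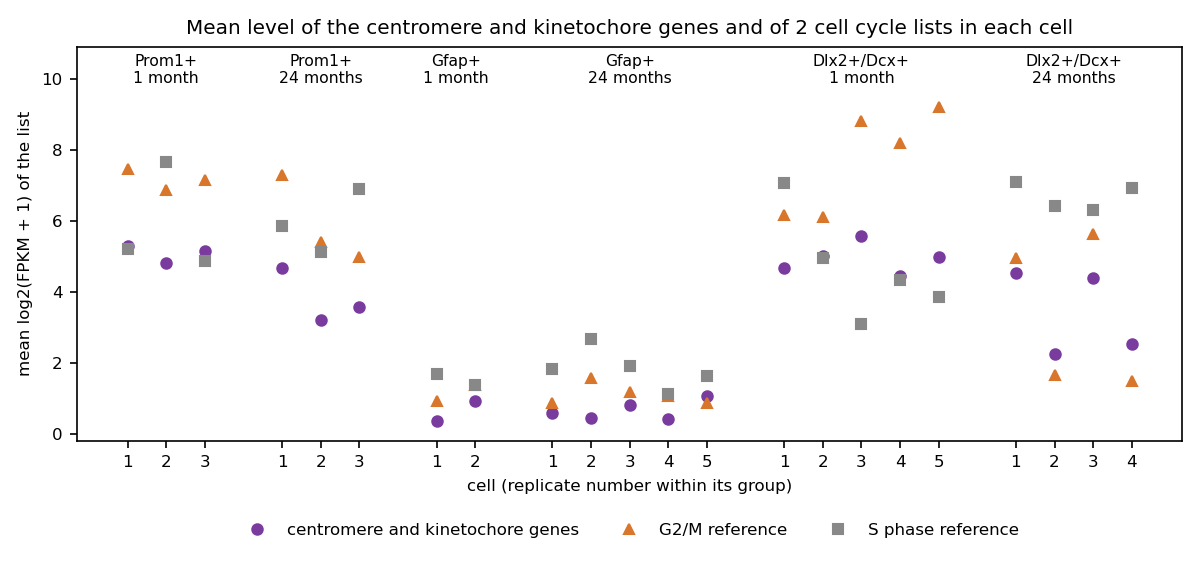
Mean log2(FPKM + 1) of the 33 centromere and kinetochore genes, of 10 G2/M reference genes and of 10 S phase reference genes in each cell, by subpopulation and age. In cells 2 and 4 of the Dlx2+/Dcx+ cells of 24 months the centromere and kinetochore genes average 2.25 and 2.52 and the G2/M genes 1.64 and 1.48, while the S phase genes average 6.43 and 6.93.

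In Gfap+ cells the ages did not overlap in 4 genes at low levels, with only 2 cells of 1 month. *Cenpa* had 11.5 and 3.26 FPKM at 1 month and 0, 0.790, 1.33, 0 and 2.19 at 24 months, *Cdca8* 3.72 and 3.27 and 0, 0.449, 1.83, 0 and 0.399, and *Cenpf* 0.755 and 3.08 and 0.0610, 0.114, 0.445, 0.720 and 0.456. These 3 were lower, against 3.10% of expressed genes, and *Hjurp* was higher, with 0 and 0.275 FPKM and 1.80, 0.484, 4.05, 3.18 and 13.8 FPKM, against 2.80%. Cell 1 of 1 month is the cell with the fewest genes and with 28 of the 33 listed at 0. Without it, 6 genes were lower by over 1 and 2 higher, and without the other cell of 1 month 3 were lower and 6 higher. With all cells, 19.6% of expressed genes were lower by over 1 and 29.6% higher.

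Other kinetochore and checkpoint genes were lower in the same subpopulations. Of 13 other kinetochore and centromere genes 9 were lower by over 1 and 1 higher in Prom1+ cells, and 9 lower and 2 higher in Dlx2+/Dcx+ cells. Of 12 spindle assembly checkpoint genes 7 were lower and 1 higher in Prom1+ cells, and 10 lower and none higher in Dlx2+/Dcx+ cells. Among expressed genes 24.0% were lower and 22% higher in Prom1+ cells, and 27.1% and 16.6% in Dlx2+/Dcx+ cells. In Gfap+ cells 2 genes of each list were lower by over 1 and 2 higher, where 19.6% of expressed genes were lower and 29.6% higher. Of the 6 genes called lower in tissue, *Cenpa*, *Spc25*, *Cenpe*, *Cenpf* and *Birc5* were lower by over 1 in Prom1+ and in Dlx2+/Dcx+ cells. *Cdca8* was so in Dlx2+/Dcx+ cells but not in Prom1+ cells. Of the genes tested and not called in tissue, *Oip5*, *Cenpc1* and *Nuf2* were lower by over 1 in both subpopulations. *Hjurp*, *Mis18a*, *Cenph* and *Zwint* were so in Prom1+ cells alone, and *Cenpb* and *Mis12* in Dlx2+/Dcx+ cells alone. In Dlx2+/Dcx+ cells *Cenph* differed by 0.51 and *Zwint* by 1.83. The share of expressed genes lower in both subpopulations was not counted. The ages compared were not the same in tissue and cells.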

How the data were processed

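The authors deposited FPKM values, 1 column per cell and per bulk sample; the study's methods and the submitters' processing notes name GRCm38, HISAT2, StringTie and featureCounts, with versions and annotation not given in the sources used here. FPKM is a share of each library's own total, so very abundant genes shift all others. Gene positions in the single-cell table differ from GRCm38, so those printed came from GENCODE M21 (GRCm38) by identifier. Bulk depth was estimated from the steps between low values; it limits the precision of low genes, and depth in cells was read from genes above 1 FPKM. Bulk samples were tested with limma 3.58.1 (R 4.3.3; lmFit, eBayes with trend) on log2(FPKM + 1) over genes reaching 1 FPKM in 3 or more samples, with age as the only term; the study's limits of unadjusted p under 0.05 and log2 change above 1 in size were used. The fit was tested on simulated data. In cells, a gene counted as expressed when it exceeded 1 FPKM in 3 or more of the 22 cells, levels are means of log2(FPKM + 1), and a subpopulation's level is the mean of its 2 age means. Values were processed with Python 3.11.15, numpy 2.4.6 and pandas 2.3.3. The members, gene lists, motifs and reference lists were chosen with earlier results of these data known. Alternatives were a pseudocount of 0.1, no filter, TPM scaling, quantile normalization, a replicate block, other cutoffs, medians, 1 age only, and each sample or cell left out.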

Additional observations from a re-analysis of the deposited data

Results flagged for a closer look

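Single cells far from the rest of their group were looked for in the groups of 4 or 5 cells, by the gap to the nearest cell relative to the group's range. Among 93 combinations of gene and group whose values were not all equal, 19 (20.4%) held such a cell. For normally distributed values chance gives about 1 in 20, a share that was not measured for these values. In 8 of the 19 all other cells of the group were listed at 0, so that the 1 cell with a value stood apart by construction. No cell stood apart in the mean of the 33 genes, in the number above 1 FPKM or in the number of all genes above 1 FPKM.

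In the Dlx2+/Dcx+ cells of 1 month, low cells were cell 2 for *Cenpa* (0.507 FPKM), cell 5 for *Cenpm* (0.439 FPKM) and cell 1 for *Cenpf* (67.6 FPKM), and high cells were cell 1 for *Oip5* (61.0 FPKM) and cell 2 for *Nsl1* (233 FPKM). In those of 24 months, cell 2 was low for *Cenpm* (1.24 FPKM). Cell 4 was high for *Mis18a* (35.9 FPKM) and *Cenpb* (2.40 FPKM), cell 1 for *Cenpl* (238 FPKM), *Ska1* (9.82 FPKM) and *Mis12* (0.176 FPKM), and cell 3 for *Ska3* (77.8 FPKM). In the Gfap+ cells of 24 months, cell 1 was high for *Cenpt* (125 FPKM) and *Oip5* (0.423 FPKM), cell 2 for *Cenpi* (3.62 FPKM), cell 3 for *Cenpp* (7.16 FPKM), *Cenpk* (1.29 FPKM) and *Cenpw* (0.311 FPKM), and cell 5 for *Mis12* (52.1 FPKM).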

How the results depend on the processing

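Of 206 values of single genes in tissue under alternatives, 203 kept their side of the limits, and none that was called changed sign. The number of genes called lower in tissue was 6 with a pseudocount of 0.1, no filter, TPM scaling, quantile normalization and the replicate block, and 4 to 7 when 1 sample was left out, and 0 were called higher in every one of these. *Cenpf* could not be tested without any one sample of 3 weeks. Over all genes, 225 were called higher, 416 with a pseudocount of 0.1 and 521 with TPM scaling, and 254 were called lower, 151 by adjusted p. The median log2 change was −0.71 with a pseudocount of 0.1, −0.37 without the filter, and −0.51 to −0.47 when 1 sample was left out. Same-numbered samples deviated together with correlations of −0.098 to −0.011, so they share only a number, and with the replicate block the same 6 genes were called by unadjusted p, while *Spc25*, *Cdca8*, *Birc5* and *Cenpa* had adjusted p of 0.106, 0.115, 0.123 and 0.124 (limma), so that none of the 4 was called by adjusted p. In cells, leaving out 1 cell moved the median age difference from −1.72 to −0.69 in Prom1+ cells, from −2.87 to −1.61 in Dlx2+/Dcx+ cells and from −0.10 to 0.31 in Gfap+ cells, where a pseudocount of 0.1 gave 0.42. The number of genes above 1 FPKM in at least 50% of Gfap+ cells, 4, was 21 at 0.1 FPKM, 0 at 5 FPKM and 7 to 11 with 1 cell left out, since 3 of 6 cells then suffice. The level difference from Gfap+ cells was 5.43 in Prom1+ and 4.86 in Dlx2+/Dcx+ cells with a pseudocount of 0.1. It was 4.73 in Prom1+ cells of 1 month, and 3.09 and 2.87 in Prom1+ and Dlx2+/Dcx+ cells of 24 months. A count model was not run, since only 64.7% to 67.1% of low values lay within 0.02 of whole fragments. Depth limits values near 1 FPKM, and a listed 0 does not show absence.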
